A study of Mus musculus with 44 samples.

Results

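The genes described here are named for proteins of the mitochondrial ribosome. They were taken by symbol from a table of read counts scaled to library size (CPM), as every gene named Mrpl or Mrps plus a number that reached 1 CPM in 5 or more of the 44 libraries. All 77 genes with such a symbol met that level, out of 14699 genes in the table and 11963 genes tested. By symbol, 48 belong to the large subunit (Mrpl) and 29 to the small subunit (Mrps). The libraries were made from cells sorted as CD45+CD11c+MHCIIhigh, a gate for dendritic cells, from the draining inguinal lymph nodes of young adult female mice kept in alternating light and dark. Mice were injected beneath the skin at 1 of 4 zeitgeber times, counted in hours from lights on (ZT3, ZT9, ZT15 and ZT21), and nodes were taken the next day. The 20 WT libraries (5 per timepoint) came from mice given B16-F10-OVA, a mouse melanoma line carrying ovalbumin, and the 12 PBS libraries (3 per timepoint) from WT mice given buffer alone. The 12 libraries labelled KO (3 per timepoint) came from mice given the same melanoma cells, in which Clec9a-cre deletes floxed Bmal1, a core clock gene also named Arntl, in the conventional dendritic cell lineage. No KO mice given PBS were analysed here. Each library is from 1 mouse, and the labels do not say which mice shared an experiment.

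Mitochondria keep a ribosome of their own, which translates the few messenger RNAs made from mitochondrial DNA, all of them for core subunits of the respiratory chain and the ATP synthase. Its ribosomal RNAs come from mitochondrial DNA, whereas its proteins are made from nuclear genes in the cytosol and imported. Many of them descend from bacterial ribosomal proteins and carry the bacterial number, and the others were added during the evolution of mitochondria and carry higher numbers. The small subunit reads the messenger RNA and the large subunit joins the amino acids. Activated dendritic cells are known to shift from oxidative metabolism towards glycolysis.

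Reads assigned to genes ranged from 20088012 to 28962671 in the WT libraries, from 29406729 to 55799163 in the KO libraries and from 28003328 to 49590055 in the PBS libraries. Every WT library was shallower than every KO library, and the WT and PBS ranges overlapped at 1 library of each (WT replicate 3 at ZT15 and PBS replicate 1 at ZT9), so depth cannot be told apart from group for WT against KO and nearly so for WT against PBS. The targeted gene, Arntl, had a mean of 19.9 CPM ± 6.91 (SD, n = 12) in the libraries labelled KO and 14.8 ± 3.65 (n = 20) in WT, and the term KO refers to the label. This level counts reads over the whole gene and does not show whether the floxed part was deleted. The 14 dendritic cell markers checked were all detected, with summed levels of 32630 to 49557 CPM in WT, 33653 to 45247 in KO and 33615 to 47528 in PBS. Markers of other cells were low but differed between groups. The 10 natural killer cell markers summed to 61.0 to 109 CPM in WT, 88.3 to 272 in KO and 154 to 766 in PBS, and the 19 T cell markers to 692 to 1238, 848 to 1735 and 936 to 1890. No marker in these 3 lists was at 0 in every library. In sorted bulk samples such as these, fewer cells of a type and less RNA per cell cannot be told apart.

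The promoters of these genes were read from the RefSeq promoter table (GRCm38.p6), which holds 250 bases before to 50 bases after the start site for 68 of the 77. For 3 genes with more than 1 promoter entry, only the first listed was used. Each window was searched on both strands for 6 short motifs. The ETS motif CCGGAAG, the kind bound by the mitochondrial regulator GABPA, stood in 24 of 68 windows (35.3%, against 18.2% of the 9626 promoters of all tested genes). The YY1 core AAGATGG was in 13 (19.1% against 7.42%), and CATGCGC, one arm of the palindrome bound by nuclear respiratory factor 1 (NRF1), was in 8 (11.8% against 7.17%). The E-box CACGTG, the sequence that BMAL1 and CLOCK bind, was in 5 (7.35% against 9.99%), the SP1-type GC box GGGCGG in 34 (50% against 63.9%) and the TATA box TATAAA in 4 (5.88% against 7.04%). These are matches of letters and not shown sites. The following 5 windows belong to genes that differed between groups, with matches to the ETS, YY1 and NRF1 motifs in capitals. Windows of genes with larger differences than some of these, such as Mrpl35 and Mrpl28, are not shown. Mrpl39 (chr16:84735195-84735494, minus strand) holds the NRF1 arm on both strands, in overlapping positions, Mrpl42 (chr10:95501900-95502199, minus strand) a YY1 core after the start site, Mrps11 (chr7:78782881-78783180, plus strand) a YY1 core before it, and Mrpl43 (chr19:45006393-45006692, minus strand) 2 ETS motifs. Mrpl14 (chr17:45686099-45686398, plus strand), which was higher with tumour than in PBS, has none of these 3 motifs, 5 GC boxes and a GC content of 78%. The annotated Mrpl14 gene begins before this window, so the absence of motifs holds for this start site only. At least 1 of the 3 motifs stood in 36 of the 68 windows, and Mrpl28, Mrpl46, Mrpl16, Mrps14 and Mrps30, all lower with tumour, had none either.
Mrpl39: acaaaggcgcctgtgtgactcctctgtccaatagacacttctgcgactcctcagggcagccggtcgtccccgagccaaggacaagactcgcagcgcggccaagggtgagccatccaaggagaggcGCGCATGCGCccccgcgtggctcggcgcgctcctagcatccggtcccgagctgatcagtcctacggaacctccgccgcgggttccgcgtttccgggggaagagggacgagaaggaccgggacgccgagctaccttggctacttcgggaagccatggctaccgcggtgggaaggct
Mrpl42: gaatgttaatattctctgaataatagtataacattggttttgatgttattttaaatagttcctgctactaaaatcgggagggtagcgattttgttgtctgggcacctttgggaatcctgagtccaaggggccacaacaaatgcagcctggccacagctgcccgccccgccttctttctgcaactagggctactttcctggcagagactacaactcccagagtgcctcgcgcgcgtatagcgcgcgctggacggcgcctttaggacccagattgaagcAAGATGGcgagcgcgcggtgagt
Mrps11: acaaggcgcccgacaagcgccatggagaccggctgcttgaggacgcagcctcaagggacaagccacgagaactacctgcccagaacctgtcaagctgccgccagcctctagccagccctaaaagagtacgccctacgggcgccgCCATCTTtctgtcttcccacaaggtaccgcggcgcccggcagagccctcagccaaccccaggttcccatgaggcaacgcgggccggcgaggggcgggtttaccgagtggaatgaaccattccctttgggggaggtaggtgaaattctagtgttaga
Mrpl43: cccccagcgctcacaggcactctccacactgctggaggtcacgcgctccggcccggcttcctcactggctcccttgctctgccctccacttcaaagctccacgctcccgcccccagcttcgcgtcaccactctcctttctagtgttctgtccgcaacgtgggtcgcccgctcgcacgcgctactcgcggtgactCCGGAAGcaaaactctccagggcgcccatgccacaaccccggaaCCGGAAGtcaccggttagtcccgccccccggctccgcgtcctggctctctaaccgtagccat
Mrpl14: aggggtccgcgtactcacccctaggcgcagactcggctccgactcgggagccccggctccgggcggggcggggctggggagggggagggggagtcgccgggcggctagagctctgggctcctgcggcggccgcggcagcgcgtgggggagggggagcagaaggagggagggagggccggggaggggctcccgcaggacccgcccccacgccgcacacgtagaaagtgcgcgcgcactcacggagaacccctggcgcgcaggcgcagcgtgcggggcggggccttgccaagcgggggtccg

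The genes lie on 17 chromosomes, with the most on chromosome 11 (10 genes) and chromosome 17 (8 genes). In the GENCODE annotation of GRCm38, 33 of 77 (42.9%) start within 1000 bases of a gene on the opposite strand, against 16% of the 11932 protein-coding genes tested. Several partners are themselves mitochondrial. Mrps12, a decoding-centre protein, is paired with Sars2, the mitochondrial seryl-tRNA synthetase, Mrpl36 with Ndufs6 and Mrpl47 with Ndufb5, both of respiratory complex I, and Mrpl43 with Twnk, the mitochondrial DNA helicase. Mrps11 (chr7:78783131-78792988) and Mrpl46 (chr7:78775341-78783089) are paired with each other, and their promoter windows share 141 bases. The library kit does not mark strand, so reads from overlapping ends of such pairs cannot be assigned from their direction.

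All 77 genes had at least 1 CPM in all 44 libraries. Their mean level ranged from 11 CPM (Mrpl47) to 117 CPM (Mrpl14), with a median of 41.7 CPM against 22.0 CPM over all genes tested. Scaled by transcript length, which removes the larger yield of long transcripts, the range was 3.27 to 181 CPM per kb, with a median of 29.8 against 7.65 for all genes. Large-subunit genes had a median of 30.02 CPM per kb and small-subunit genes 26.5. On this scale Mrpl14 (181 CPM per kb), Mrps21 (172) and Mrpl20 (134) were highest, and Mrpl47 (3.27), Mrps5 (4.36) and Mrpl35 (5.79) lowest. The genes of both subunits spanned most of this range, and the lowest values belonged to genes with long annotated transcripts.

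**Figure D1:**
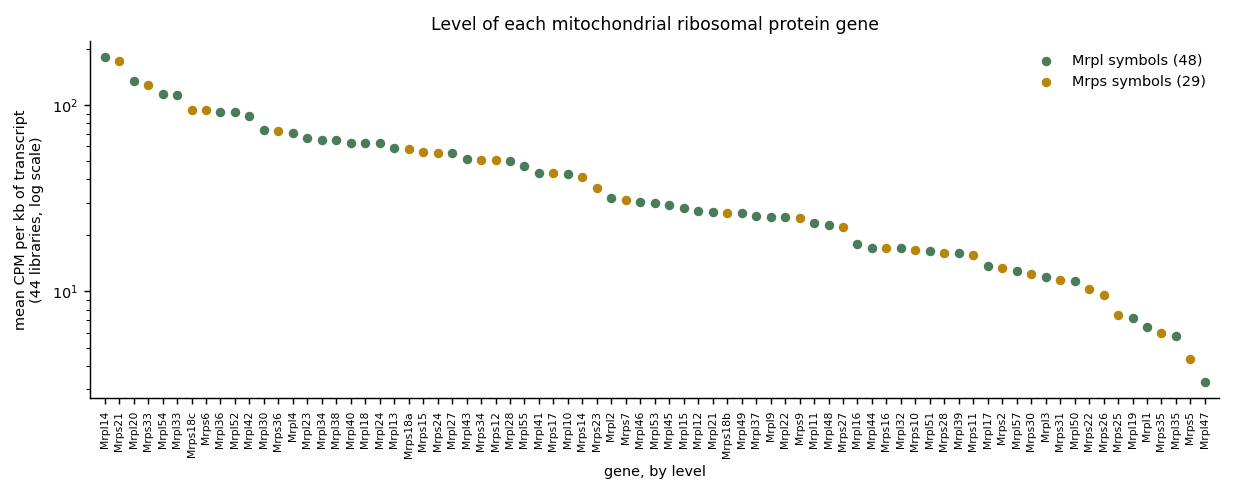
Mean level of each gene over 44 libraries in CPM per kb of transcript (log axis), ordered by level, with Mrpl and Mrps symbols in different colours. The values run from 3.27 for Mrpl47 to 181 for Mrpl14, and both subunits cover most of that range.

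The mean summed level of the 77 genes was highest in PBS, and was close in WT and KO. It was 3411 CPM ± 308 (SD, n = 20) in WT, 3455 ± 358 (n = 12) in KO and 3825 ± 405 (n = 12) in PBS. Within WT the sum was 3312 ± 312 at ZT3, 3275 ± 205 at ZT9, 3411 ± 393 at ZT15 and 3647 ± 232 at ZT21 (n = 5 each). Within PBS it was 3563 ± 278 at ZT3, 3634 ± 228 at ZT9, 4305 ± 401 at ZT15 and 3799 ± 328 at ZT21 (n = 3 each). The 3 PBS libraries at ZT15 summed to at least 3883 CPM, and PBS replicate 2 at ZT15 alone was the highest of the 12 PBS libraries for 33 of the 77 genes. In KO the sum was 3563 ± 144 at ZT3, 3616 ± 228 at ZT9 and 3326 ± 158 at ZT15, and the 3 libraries at ZT21 lay far apart (2602 to 4007 CPM). KO replicate 1 at ZT21 was the lowest of the 12 KO libraries for 49 genes and replicate 3 at ZT21 the highest for 27.

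**Figure D2:**
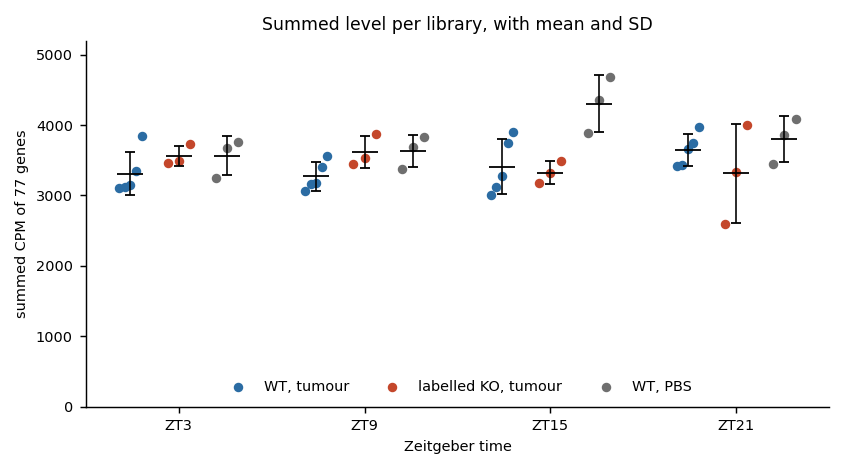
Summed CPM of the 77 genes in each library by zeitgeber time, with 1 point per library and bars for the mean ± SD of each group (n = 5 for WT, n = 3 for KO and PBS). The PBS libraries at ZT15 are high (3883 to 4682 CPM) and the KO libraries at ZT21 spread from 2602 to 4007 CPM.

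The genes varied less between libraries than other genes and varied together. The median SD of log2(CPM + 0.5) within a group was 0.19 in WT, 0.25 in KO and 0.19 in PBS, against 0.31, 0.35 and 0.31 over all genes. Correlations between pairs of genes were taken across libraries of 1 condition after the mean of each timepoint was subtracted. Their median for these genes was 0.36 in WT (n = 20), 0.45 in KO (n = 12) and 0.35 in PBS (n = 12), against 0.07, 0.01 and 0.01 between all genes. These are descriptions, since all pairs share the same libraries, depth and scaling. The 77 genes also had higher levels than all genes (median 41.7 against 22.0 CPM), and the part of level in their lower SD was not tested.

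The comparison with PBS asked how the presence of tumour cells related to these genes in WT mice. Averaged over the 4 timepoints, 44 of 77 genes differed (limma on log2(CPM + 0.5), Benjamini-Hochberg adjusted p under 0.05 over all genes tested), 42 of them lower and 2 higher with tumour. Of all genes tested, 37.9% differed, 24.6% lower and 13.3% higher. The median log2 difference, WT tumour minus PBS, was -0.19 over the 77 genes and -0.04 over all genes. Of the 52 members in the shortest of 4 transcript length classes of similar size (classes chosen after the values were seen), 29 were lower, where 38.1% of all genes of that class were lower with a median of -0.14. By symbol alone, lower genes numbered 27 of 48 in the large subunit and 15 of 29 in the small subunit. No gene differed by 2-fold or more in this average, against 6.24% of all genes. Without ZT15, the timepoint at which PBS was highest (a choice made after the values were seen), 28 genes differed, 26 of them lower, with a median of -0.12, where 31.3% of all genes differed, 19.6% were lower and the median was -0.02. With median-of-ratios scaling 30 genes differed, 28 of them lower, with a median of -0.14, where 37.7% of all genes differed and 20.3% were lower. Without PBS replicate 2 at ZT15, which also had the highest level of natural killer cell markers, 37 genes differed, 35 of them lower, where 34.4% of all genes differed and 22.7% were lower.

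Mrps28, a small-subunit protein, had the smallest adjusted p (chr3:8802146-8923857). In WT its levels were 8.71, 8.85, 12.4, 10.4 and 8.93 CPM at ZT3, 9.14, 9.80, 7.08, 7.51 and 7.48 at ZT9, 10.4, 10.1, 9.98, 8.40 and 11.1 at ZT15 and 10.3, 13.2, 9.86, 10.02 and 8.61 at ZT21. In PBS they were 16.8, 13.8 and 17.3 CPM at ZT3, 15.03, 15.4 and 15.9 at ZT9, 18.8, 34.5 and 21.1 at ZT15 and 17.3, 10.7 and 13.5 at ZT21. Every PBS library lay above every WT library at ZT3, ZT9 and ZT15, and the groups overlapped at ZT21. The averaged log2 difference was -0.79 (SE 0.09, limma adjusted p = 3.46e-08), and at ZT15 it was -1.23 (limma adjusted p = 2.53e-05) and past 2-fold (6.24% of all genes were called past 2-fold there). Without PBS replicate 2 the ZT15 difference was -0.97 (limma adjusted p = 0.0011).

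Further large-subunit genes with the smallest adjusted p moved the same way. Mrpl42 (chr10:95480805-95501949), a large-subunit protein with a mitochondrial number, had a lowest, median and highest level of 38.1, 46.2 and 62.9 CPM in WT and 55.8, 69.8 and 109 CPM in PBS. Its WT libraries lay below all PBS libraries at ZT3, ZT9 and ZT15 and overlapped them at ZT21, and its averaged log2 difference was -0.60 (SE 0.08, limma adjusted p = 5.31e-07). Mrpl28 (chr17:26123503-26126613) had 33.2, 43.8 and 56.0 CPM in WT and 44.2, 61.8 and 77.3 CPM in PBS, a log2 difference of -0.52 (SE 0.07, limma adjusted p = 1.1e-06). Mrpl35 (chr6:71812997-71823784) is the 1 gene whose WT libraries all lay below all PBS libraries at each of the 4 timepoints. Its levels were 11, 16.8 and 23.0 CPM in WT and 20.3, 25.3 and 40.9 CPM in PBS, a log2 difference of -0.68 (SE 0.10, limma adjusted p = 3.45e-06). Mrpl39 (chr16:84718281-84735244) had 24.3, 31.5 and 35.3 CPM in WT and 30.6, 43.6 and 47.8 CPM in PBS, a log2 difference of -0.39 (SE 0.06, limma adjusted p = 1.21e-05). Its ranges were apart at 3 of 4 timepoints.

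The next genes by adjusted p were Mrpl19 (log2 difference -0.31), Mrpl46 (-0.33), Mrpl16 (-0.41), Mrps11 (-0.46) and Mrps14 (-0.38), with limma adjusted p from 5.39e-05 to 0.000145. The neighbouring genes Mrps11 and Mrpl46 were thus both lower with tumour. Mrpl12, which forms the stalk of the large subunit and also binds the mitochondrial RNA polymerase, was lower by a log2 difference of -0.32, Mrpl3, near the peptidyl-transferase centre, by -0.19 and Mrps12, of the decoding centre, by -0.15, the last not past the test with median-of-ratios scaling (limma adjusted p = 0.26). The paralogues Mrps18a and Mrps18b were lower, at -0.30 and -0.32, whereas the third, Mrps18c, had a value of -0.06 (limma adjusted p = 0.586). Among genes known from inherited disease of mitochondrial translation, Mrps22 was lower (-0.35, limma adjusted p = 0.002), and Mrps16 (-0.10) and Mrpl44 (-0.05), the latter related to RNase III, did not pass the test. Mrps36, now assigned to the 2-oxoglutarate dehydrogenase complex rather than the ribosome, had a value of -0.05. Mrps30, which despite its symbol sits in the large subunit of mammals, had a difference of -0.38 (limma adjusted p = 0.000178).

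The 2 genes that were higher with tumour went against this direction. Mrpl14 (chr17:45685722-45698495), a large-subunit protein at the interface of the subunits, had 120, 119, 186, 117 and 119 CPM in WT at ZT3, 146, 92.9, 112, 117 and 132 at ZT9, 138, 162, 121, 124 and 161 at ZT15 and 142, 165, 140, 152 and 143 at ZT21. The PBS levels were 104, 89.8 and 90.9 CPM at ZT3, 96.4, 92.9 and 94.9 at ZT9, 138, 129 and 123 at ZT15 and 118, 121 and 115 at ZT21. WT libraries were all above PBS at ZT3 and ZT21 and overlapped it at ZT9 and ZT15. The averaged log2 difference was 0.30 (SE 0.07, limma adjusted p = 0.00116). The other, Mrps27, a small-subunit protein named after its values were seen, differed by 0.24 (limma adjusted p = 0.0029). Its values were more than 0.01 reads from a whole number of reads in 79.5% of libraries.

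Differences from PBS were seen in the largest number of genes at ZT15. Genes called by limma numbered 8 at ZT3 (10.5% of all genes), 10 at ZT9 (16.3% of all genes), 28 at ZT15 (17.6%) and 1 at ZT21 (9.21%). All 28 at ZT15 were lower with tumour (13.2% of all genes). Leaving out single libraries of a timepoint, chosen after the values were seen, changed these counts. Without PBS replicate 2, 8 genes were called at ZT15 (6.78% of all genes), the fewest for any library left out there, and the most were 40, without WT replicate 2 (20.1%). At ZT3 the count fell to 1 without PBS replicate 3 (5.34%) and 2 without replicate 1 (6.54%), and at ZT9 to 4 without PBS replicate 2 (10.3%). After Mrps28, the smallest adjusted p at ZT15 belonged to Mrpl47 (chr3:32727497-32736755), with 7, 9.06, 7.46, 8.32 and 11.4 CPM in WT and 15.2, 17.4 and 18.2 CPM in PBS. These ranges did not overlap, and the log2 difference was -0.95 (limma adjusted p = 0.000409). Mrpl42 was the single gene called at ZT21, and its call was lost without WT replicate 1, 4 or 5 or PBS replicate 1 or 3 of that timepoint (limma adjusted p up to 0.168). In a count that uses no model, all WT libraries lay below all PBS libraries for 14 genes at ZT3 (13.4% of all genes), 17 at ZT9 (13.3%), 27 at ZT15 (14.7%) and 5 at ZT21 (10%). Mean levels were lower in WT at all 4 timepoints for 44 genes (57.1%, against 26.7% of all genes) and higher at all 4 for 3 (3.9% against 16%). The test of whether the difference varied with time called none of the 77 genes (limma, 7 at an unadjusted p under 0.05, 11.9% of all genes), so that the concentration at ZT15 is a count and not a tested difference.

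**Figure D3:**
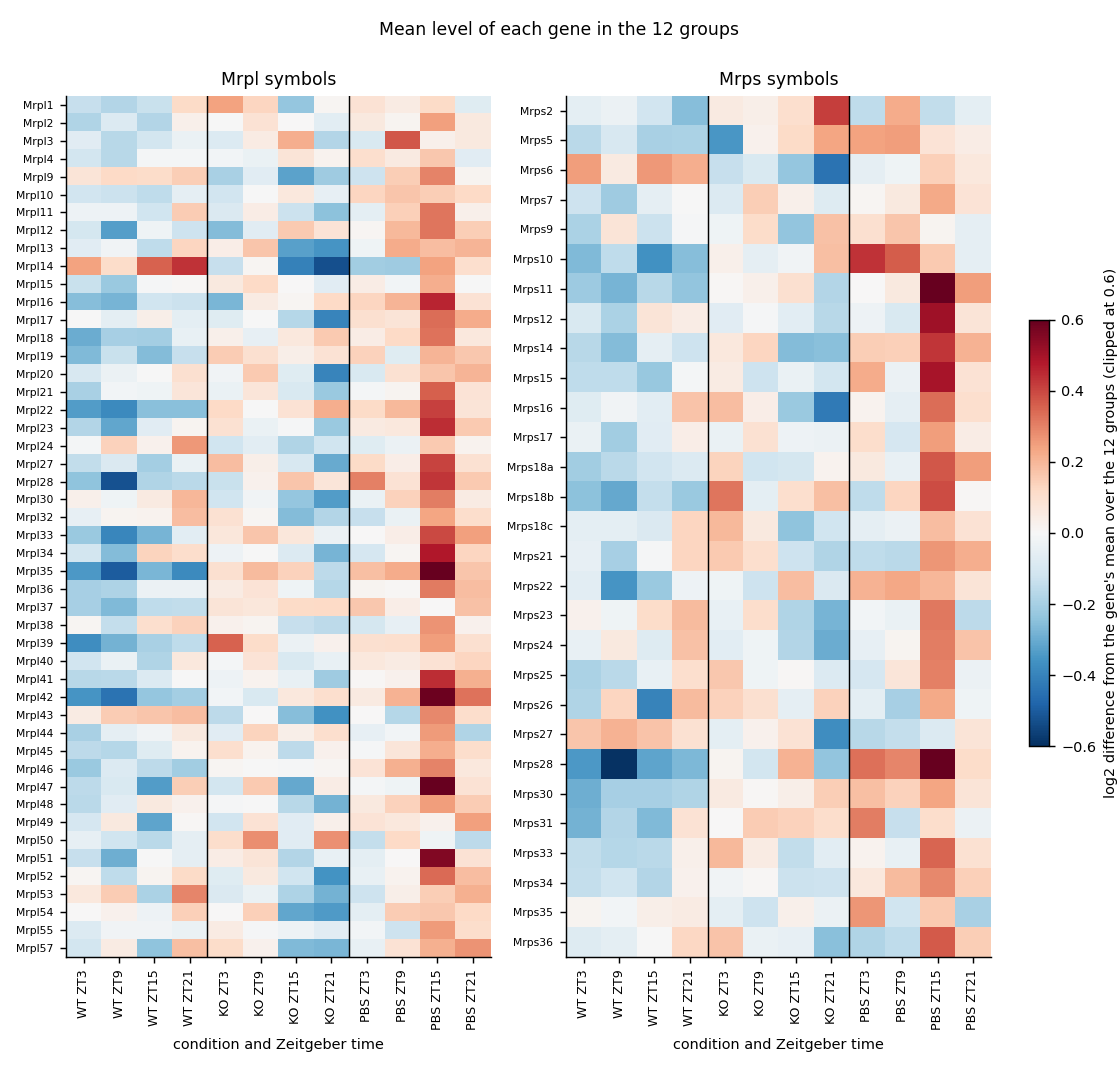
Mean log2 level of each gene at each timepoint in WT, KO and PBS, as the difference from that gene's mean over the 12 groups, with genes in rows and colours clipped at 0.6. The PBS column at ZT15 is high for most genes, and its mean summed level was 4305 CPM.

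The comparison of libraries labelled KO with WT, both given tumour cells, asked how the genotype label related to these genes. It shares the WT libraries with the comparison above, so the directions of the 2 are not independent. Averaged over timepoints, 23 of 77 genes differed (limma), 16 higher and 7 lower in KO. Of all genes tested 33.7% differed, 23.5% higher and 10.2% lower. The median log2 difference, KO minus WT, was 0.08 over the 77 genes and 0.10 over all genes. With libraries rescaled by the median of ratios, which sets the median difference of all genes to 0.01, 15 genes differed, 6 higher and 9 lower, with a median of -0.01, where 29.3% of all genes differed, 14.6% higher and 14.7% lower. The general direction of the 77 genes thus depended on the scaling, and 13 genes were called under both. Without ZT21, the timepoint at which the KO libraries lay far apart, 20 genes differed, 16 higher and 4 lower, where 24.3% of all genes differed, 16.8% higher and 7.46% lower.

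Mrpl14 had the smallest adjusted p among the 77 genes and was lower in KO. Its KO levels were 110, 93.7 and 95.2 CPM at ZT3, 109, 125 and 98.9 at ZT9, 76.6, 86.4 and 85.8 at ZT15 and 48.8, 97.0 and 92.6 at ZT21, against the WT levels given above. All KO libraries were below all WT libraries at ZT3, ZT15 and ZT21. The averaged log2 difference was -0.55 (SE 0.09, limma adjusted p = 4.26e-05). It was -0.96 at ZT21 (limma adjusted p = 0.000971) and -0.10 at ZT9 (limma adjusted p = 0.792). Without KO replicate 1, the lowest library, the ZT21 difference was -0.64 (limma adjusted p = 0.023).

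Other lower genes were of both subunits. Mrpl9 (chr3:94443154-94448708) had a lowest, median and highest level of 29.3, 35.0 and 40.9 CPM in KO and 34.8, 43.3 and 52.5 CPM in WT, a log2 difference of -0.31 (SE 0.06, limma adjusted p = 0.00018). Mrpl43 (chr19:45005014-45006442) had 43.8, 60.6 and 78.7 CPM in KO and 65.5, 75.7 and 95.0 CPM in WT, a difference of -0.33 (limma adjusted p = 0.000263). Mrps6 (chr16:92058336-92112227) had 46.6, 67.7 and 77.4 CPM in KO and 67.0, 86.4 and 142 CPM in WT, a difference of -0.42 (limma adjusted p = 0.00028). All KO libraries lay below all WT libraries at ZT3, ZT9 and ZT15 for Mrpl9, at ZT3, ZT15 and ZT21 for Mrpl43 and at ZT15 and ZT21 for Mrps6, and the groups overlapped at the other timepoints. Of the 7 lower genes, Mrps6, Mrpl24, Mrps27 and Mrpl30 held fractions of a read in over 50% of libraries, and among the 63 genes that never did, 14 were higher and 2 lower (23.6% and 9.71% of the 9429 tested genes that never did).

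Higher genes were led by Mrpl39. Its KO levels were 44.7, 49.9 and 48.7 CPM at ZT3, 39.2, 35.5 and 47.0 at ZT9, 30.9, 41.4 and 37.5 at ZT15 and 30.3, 42.1 and 42.9 at ZT21. Its WT levels were 30.9, 29.7, 29.1, 25.8 and 28.3 CPM at ZT3, 33.7, 29.1, 24.3, 31.9 and 34.8 at ZT9, 32.9, 35.2, 31.1, 30.6 and 33.2 at ZT15 and 30.2, 34.3, 32.9, 35.3 and 35.2 at ZT21. The groups were apart at ZT3 and ZT9 and overlapped at ZT15 and ZT21, and the averaged log2 difference was 0.36 (SE 0.06, limma adjusted p = 7.44e-05). Mrpl35 (0.44), Mrpl28 (0.31), Mrpl42 (0.32), Mrps28 (0.35) and Mrpl19 (0.29), all lower in WT than in PBS, were higher in KO than in WT, with limma adjusted p from 0.000244 to 0.0309. With median-of-ratios scaling Mrpl42 and Mrps28 no longer passed (limma adjusted p = 0.0582 and 0.138). Mrps18b (chr17:35910380-35916440), a small-subunit paralogue, had 20.03, 28.1 and 34.4 CPM in KO and 15.4, 21 and 29.9 CPM in WT, a log2 difference of 0.37 (limma adjusted p = 0.00141). Mrpl22 differed by 0.41 and Mrps30 by 0.28, the latter not past the test with median-of-ratios scaling (limma adjusted p = 0.0613).

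**Figure D4:**
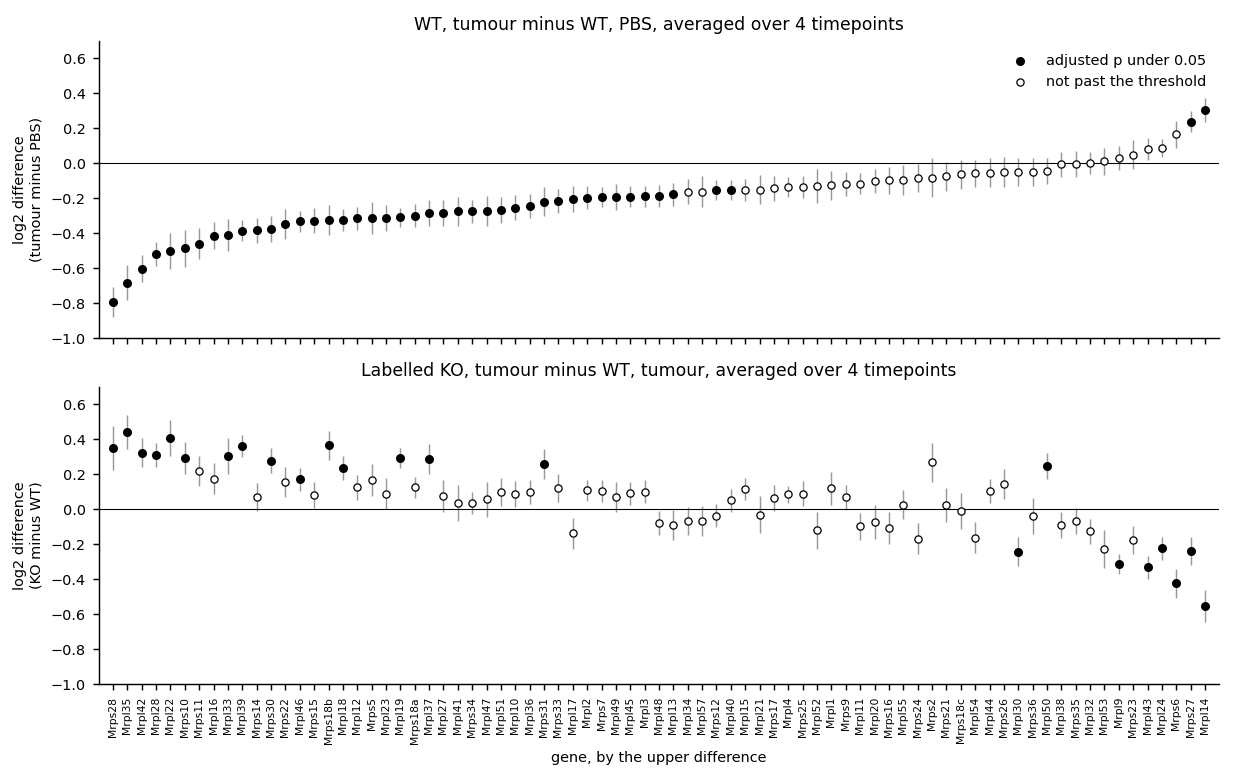
Averaged log2 difference ± SE of each gene, WT tumour minus PBS in the upper panel and KO minus WT in the lower, with genes ordered by the upper panel and filled points for an adjusted p under 0.05. Both panels use the same WT libraries, and the medians are -0.19 and 0.08.

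Per timepoint, limma called 3 of the 77 genes at ZT3 (5.2% of all genes), 3 at ZT9 (8.94%), 4 at ZT15 (14.8%) and 7 at ZT21 (14.2%). The calls at ZT3 and ZT9 were all higher in KO (3.06% and 3.78% of all genes), the 4 at ZT15 all lower (2.76%), and 6 of the 7 at ZT21 lower (5.18%). The ZT21 count changed with the library left out. Without KO replicate 1, the lowest KO library for 49 genes, 2 genes were called, 1 of them lower (6.29% of all genes called, 2.06% lower), and without KO replicate 3, 21 were called, all lower (14.2% and 6.74%). Without WT replicate 2 at ZT21 3 were called (10.7%), and without WT replicate 1 or 4 4 each (11.9% and 11%). At ZT15 1 gene was called without KO replicate 1 or 2 (6.87% and 9.18%), and at ZT3 1 gene without KO replicate 2 or 3 or WT replicate 1 or 5 (2.71% to 4.89%). Mrpl28, Mrpl35 and Mrpl39 made up the calls at ZT9, with log2 differences of 0.54, 0.69 and 0.40, and none of the 3 was called without KO replicate 3 (limma adjusted p = 0.0585, 0.0768 and 0.246, 6.16% of all genes called) and 1, Mrpl35, without KO replicate 1 (6.04%). Levels were higher in KO at all 4 timepoints for 21 genes (27.3%, against 24.5% of all genes) and lower at all 4 for 8 (10.4% against 10.7%). The test of whether the KO difference varied with time called none of the 77 genes (limma, 5 at an unadjusted p under 0.05), where 0.0502% of all genes were called and 18.3% passed unadjusted. Mrpl14 had the smallest p, with effects spanning 0.86 on the log2 scale (limma adjusted p = 0.184).

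Time of day was tested within each condition. In WT, 1 of the 77 genes differed between timepoints by limma's F test (8 at an unadjusted p under 0.05), where 5.28% of all genes were called and 23.1% passed unadjusted. In KO none was called and none passed unadjusted (no gene of the table was called and 10.3% passed unadjusted), and in PBS none was called and 8 passed unadjusted (no gene called, 7.44% unadjusted). The 1 called gene was Mrps26 (chr2:130563757-130565394), a small-subunit protein with a mitochondrial number. Its WT levels were 44.3, 35.5, 31.7, 34.5 and 34.8 CPM at ZT3, 52.7, 40.9, 43.6, 43.0 and 43.5 at ZT9, 27.3, 39.2, 28.0, 23.1 and 39.5 at ZT15 and 44.8, 51.0, 46.3, 43.5 and 47.9 at ZT21. ZT9 and ZT21 were high and ZT3 and ZT15 low, so the timepoints 12 h apart were alike and the pattern was not that of a single daily peak. Timepoint means spanned 0.59 on the log2 scale (limma adjusted p = 0.0318). The call was lost when any 1 of 8 of the 20 libraries was left out, namely replicates 3 and 4 at ZT9, 1, 3 and 4 at ZT15, and 2, 3 and 5 at ZT21, with a largest adjusted p of 0.085. It was also lost with median-of-ratios scaling (limma adjusted p = 0.117), where Mrpl28 was the 1 gene called instead (limma adjusted p = 0.0337, 5.55% of all genes called). With array weights, 8 of the 77 genes were called for time in WT (20.6% of all genes).

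A cosine of 24 h was fitted as well. It called none of the 77 genes in WT (limma, 5 at an unadjusted p under 0.05, with 0.0251% of all genes called and 9.2% unadjusted), none in KO (0 unadjusted, 10.5% of all genes) and none in PBS (10 unadjusted, 7.38% of all genes). The counts of fitted peaks that follow are descriptions, since these genes share libraries and vary together and are not independent. Fitted peaks fell between 12 and 24 h for 64 genes in WT (83.1%, against 40.9% of all genes), 20 in KO (26% against 65.5%) and 63 in PBS (81.8% against 42.0%). Without KO replicate 1 at ZT21 the KO count was 28 genes, with 67.7% of all genes. The WT count was not repeated without single libraries. Amplitudes were small, with medians of 0.09, 0.13 and 0.16 on the log2 scale in WT, KO and PBS, below those of all genes (0.14, 0.22 and 0.18). The WT genes that passed unadjusted were Mrpl34, Mrpl28, Mrps22, Mrps12 and Mrpl23, with fitted peaks at 18.6 to 22.8 h. In PBS the smallest p was that of Mrpl14, with an amplitude of 0.28 and a peak at 17.3 h (limma adjusted p = 0.596).

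The highest mean level was at ZT21 for 53 of 77 genes in WT (68.8%, against 26.4% of all genes), ZT9 for 36 in KO (46.8% against 17.4%) and ZT15 for 59 in PBS (76.6% against 29.1%). These counts are also descriptions of genes that vary together. With median-of-ratios scaling the WT genes peaked at ZT15 (38, with 30.5% of all genes) or ZT21 (32, with 23.5%) and were lowest at ZT9 in 61 (31.6%), while in KO 45 peaked at ZT9 (26.6%) and in PBS 61 at ZT15 (32.3%). With the deposited CPM, the KO pattern rested on 1 library, in omissions chosen after the values were seen. Without KO replicate 1 at ZT21, the lowest library for most of these genes, 24 genes were highest at ZT9 and 32 at ZT21, whereas without KO replicate 3 at ZT21 37 were highest at ZT9 and 4 at ZT21. In PBS 54 genes were still highest at ZT15 without replicate 2 of that timepoint. Between ZT9 and ZT21, the median log2 difference over the 77 genes was -0.14 in WT (0.04 over all genes), 0.13 in KO (-0.12) and -0.07 in PBS (0.03). With median-of-ratios scaling the medians were -0.19 in WT (-0.007 over all genes), 0.26 in KO (-0.001) and -0.10 in PBS (-0.002). In the deposited CPM, short genes in general shared the WT and KO directions. In the shortest transcript length class the medians were -0.10 over all genes and -0.15 over its 52 members in WT, and 0.05 and 0.14 in KO, whereas all genes of the longest class had 0.16 in WT and -0.22 in KO (its 6 members -0.03 and -0.02). The KO median was -0.01 without replicate 1 at ZT21 and 0.27 without replicate 3 at ZT21, so that its sign rested on 1 library. The PBS median ranged from -0.13 to -0.0023 when each library was left out. Limma called none of the 77 genes in WT (0.226% of all genes), KO (0.00836%) or PBS (0 genes of the table). In WT 14 genes passed an unadjusted p under 0.05 and all were lower at ZT9 (11.5% of all genes passed, 5.02% as lower), in KO none did (10.9%) and in PBS 1 did (5.32%). Mrpl28 had a WT difference of -0.36 (SE 0.11, limma adjusted p = 0.202) and Mrpl34 one of -0.37. With array weights, 5 of the 77 genes were called in WT, all lower at ZT9 (3.95% of all genes called).

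**Figure D5:**
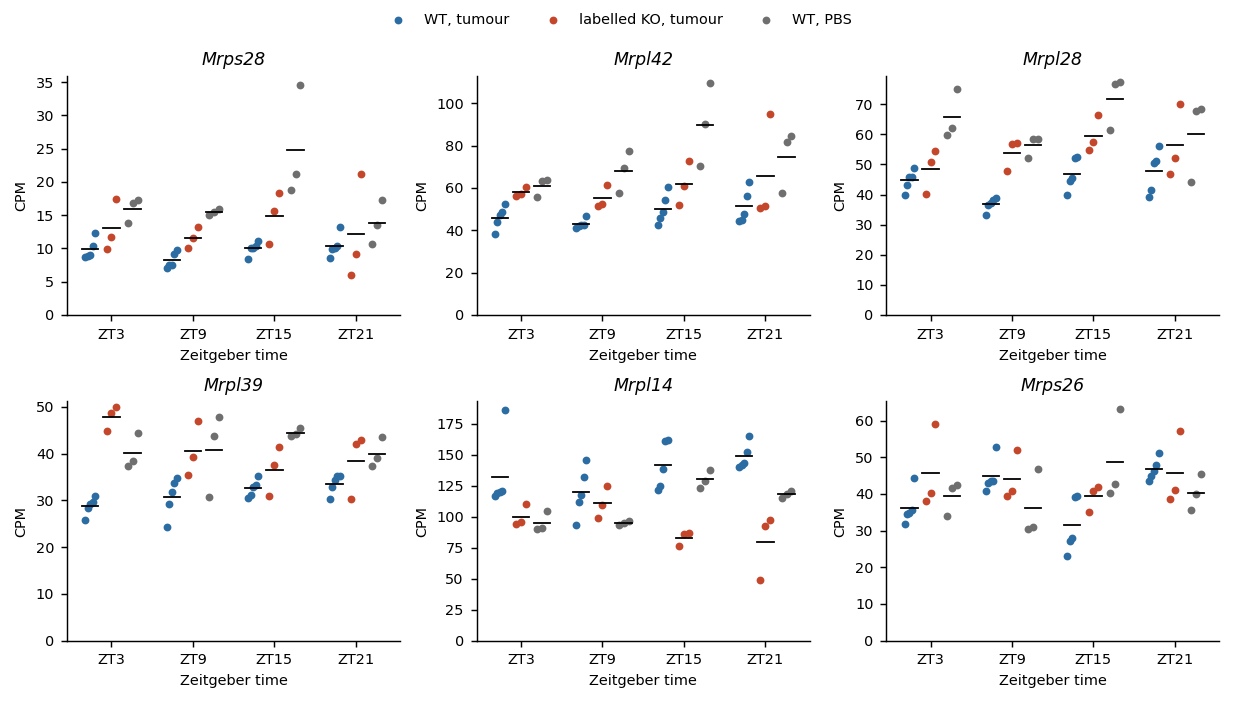
Level in CPM of Mrps28, Mrpl42, Mrpl28, Mrpl39, Mrpl14 and Mrps26 by zeitgeber time, with 1 point per library and a line for each group mean in WT, KO and PBS. Mrps28 is lower in WT than in PBS at ZT3, ZT9 and ZT15, and Mrpl14 falls to 48.8 CPM in 1 KO library at ZT21.

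Other genes of mitochondrial translation were counted in the same fits, in which 24.6% of all genes were lower and 13.3% higher against PBS, and 23.5% higher and 10.2% lower in KO minus WT. Against PBS, 4 of 25 tested genes for ribosome assembly and ribosomal RNA modification were lower with tumour and 3 higher, as were 3 and 2 of 20 mitochondrial aminoacyl-tRNA synthetases, and 2 and 0 of 16 translation factors. Of 9 genes for mitochondrial DNA transcription and replication 2 were lower and 0 higher, and of 5 mitochondrial ribosomal proteins with other symbols 1 was lower and 0 higher. The subunits of oxidative phosphorylation, which hold the proteins this ribosome makes, had 31 of 78 lower and 1 higher, with a median of -0.14. The 92 cytosolic ribosomal proteins ran the other way, with 8 lower and 27 higher and a median of 0.13. In KO minus WT, 5 of the 25 assembly genes, 3 of the 20 synthetases, 3 of the 16 translation factors and 3 of the 9 transcription and replication genes were higher, and 1 synthetase was lower. Oxidative phosphorylation subunits had 8 higher and 7 lower, and cytosolic ribosomal proteins 5 higher and 69 lower, with a median of -0.46.

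Markers of other cells moved with the group differences. Against PBS, all 10 natural killer markers were lower with tumour (median log2 difference -1.92), as were 15 of 19 T cell markers (median -0.51, 2 higher) and 5 of 9 B cell markers (median -0.46). In KO minus WT, 7 natural killer, 6 T cell and 3 B cell markers were higher, and 2 T cell markers lower. Of the 14 dendritic cell markers, 2 were higher and 3 lower against PBS. The part of these markers in the differences of the mitochondrial ribosomal proteins was not tested.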

How the data were processed

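RNA was sequenced from sorted lymph node cells of 44 mice (SMART-Seq v4 and Nextera XT libraries, single reads). According to the methods, reads were aligned to mm10 with STAR, counted with HTSeq 0.9.1 and scaled for library size. The authors deposited 1 table of CPM values per gene, 1 column per library. Of the non-zero values, 87.5% to 89.3% per library were whole reads to within 0.01 reads, so whole reads were not recovered for all values and no count model was run. Depth was 20088012 to 55799163 reads per library, and 1 CPM stood for a median of 23.7 reads in WT, 37.0 in KO and 37.9 in PBS. From these values log2(CPM + 0.5) was computed for the 11963 genes that reached 1 CPM in 5 or more libraries, and 2736 genes were left out.

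Groups came from the genotype, treatment and time labels. Linear models were fitted across all genes with limma 3.58.1 in R 4.3.3, for time within each condition alone and for the group comparisons on WT with KO and on WT with PBS, with a mean for each group and timepoint, and adjusted by the Benjamini-Hochberg method over all genes (two-sided, threshold 0.05). Tests were the average over timepoints, each timepoint, the interaction with time, an F test of time, a cosine of 24 h and ZT9 minus ZT21. Fold changes are differences on the log2(CPM + 0.5) scale, which understates changes of low genes. The scripts were tested on simulated data. Genes named with values were drawn from the 3 with the smallest p in each comparison, all called genes (the 10 with the smallest p where more were called), the 3 highest and 3 lowest per kb, and a set with known further roles or disease links. Not every gene that this rule selects is printed for each comparison. Others in the text were chosen after their values were seen. The members, gene lists and tests were chosen with earlier results of these data known. Alternatives were another pseudocount, scaling, filter, trend, array weights, a replicate block, and leaving out each library. With 1 mouse per library, p-values measure the spread between mice, and the experiment of each mouse was not labelled. Transcript lengths and neighbours came from GENCODE (GRCm38) and promoters from RefSeq (GRCm38.p6).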

Additional observations from a re-analysis of the deposited data

Results flagged for a closer look

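Single WT libraries stood apart from the other 4 of their timepoint in 15 of 140 groups checked (10.7%). Chance gives about 1 in 20 for independent groups, which is no fair value here, since the genes checked were mostly chosen by their results, share the same libraries and vary together. The gap to the nearest library exceeded Dixon's 95% value in each. WT replicate 3 at ZT3 was highest for Mrpl54 (98.3 CPM, others 57.2 to 65.8), Mrpl14 (186 CPM, others 117 to 120), Mrps14 (88.5 CPM, others 63.5 to 69.9) and Mrps36 (61.0 CPM, others 37.9 to 42.0). WT replicate 1 at ZT9 was highest for Mrps26 (52.7 CPM, others 40.9 to 43.6), Mrpl54 (92.4 CPM, others 60.0 to 69.4), Mrpl19 (35.1 CPM, others 32.4 to 33.1), Mrpl43 (95.0 CPM, others 70.5 to 76.3) and Mrpl44 (28.9 CPM, others 21.6 to 23.1). WT replicate 1 at ZT21 was highest for Mrpl44 (29.3 CPM, others 24.5 to 24.6) and lowest for Mrps30 (27.4 CPM, others 37.5 to 40.7). WT replicate 5 at ZT21 was lowest for Mrps16 (39.7 CPM, others 50.5 to 52.5) and highest for Mrps6 (104 CPM, others 82.4 to 87.5). WT replicate 5 at ZT9 was highest for Mrpl42 (46.8 CPM, others 41.0 to 42.4), and WT replicate 5 at ZT15 for Mrps11 (19.5 CPM, others 13.3 to 14.4). The groups of 3 (KO and PBS) were not checked in this way.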

How the results depend on the processing

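Of 168 values of the 21 named calls with the smallest p under alternative settings, 166 kept their direction and side of the threshold, 2 (both Mrps26) no longer passed and 0 reversed. Named calls with a larger p were not in this count. Among those, Mrps12 against PBS and Mrpl42, Mrps28 and Mrps30 in KO minus WT no longer passed with median-of-ratios scaling. Median-of-ratios scaling gave 15 genes in KO minus WT (29.3% of all genes) and 30 against PBS (37.7%). Array weights, whose estimation stopped before its tolerance in 1 fit, gave 8 genes for time in WT (20.6% of all genes), 1 for the cosine in WT (1.23%), 5 for ZT9 minus ZT21 in WT (3.95%) and 2 for the genotype interaction (8.95%). Leaving out ZT15 gave 28 genes against PBS (31.3%). Leaving out each library gave 20 to 24 genes in KO minus WT (30.9% to 34.1% of all genes) and 37 to 47 against PBS (34.4% to 40.5%). It gave 0 to 2 genes for time in WT, and 0 in the other time and cosine tests, in ZT9 minus ZT21 and in both interactions. At single timepoints, without each library of that timepoint (added after the values were seen), the counts against PBS ranged from 1 to 9 at ZT3, 4 to 10 at ZT9, 8 to 40 at ZT15 and 0 to 2 at ZT21, and those in KO minus WT from 1 to 3, 0 to 3, 1 to 4 and 2 to 21. With all libraries, the shares of all genes at these timepoints were 10.5%, 16.3%, 17.6% and 9.21% against PBS. In KO minus WT they were 5.2%, 8.94%, 14.8% and 14.2%. These shares also moved when a library was left out, as given above for several of the counts. Without each library, the medians over the 77 genes ranged from 0.05 to 0.11 in averaged KO minus WT, from -0.20 to -0.17 against PBS and, for ZT9 minus ZT21 in WT, from -0.18 to -0.12. With a replicate block, 0 genes were called for time in WT (2.85% of all genes). Against PBS 28 were called, 27 lower and 1 higher (30.8% of all genes, 20.7% lower and 10.1% higher). In KO minus WT 16 were called, 10 higher and 6 lower (27.4% of all genes, 18.9% higher and 8.48% lower). The replicate numbers did not pair the libraries, since same-numbered WT libraries correlated between -0.24 and 0.16, KO between -0.09 and 0.09 and PBS between -0.17 and 0.09, and 3 of 20, 5 of 12 and 1 of 12 correlated best with their own number. Causes of these shifts were not tested. Groups of KO and PBS held 3 libraries per timepoint and WT libraries were mostly shallower, and the effect of either on the counts was not tested. The 9 genes with fractional reads in over 50% of libraries are less certain.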

Other observations

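Transcript length was related to the difference between WT and PBS over all genes, in 4 length classes of similar size chosen after the values were seen. The median log2 difference, WT tumour minus PBS, was -0.14, -0.08, -0.01 and 0.08 from the shortest to the longest class of all genes, and -0.18, -0.15, -0.23 and -0.17 for the 52, 11, 8 and 6 mitochondrial ribosomal protein genes in those classes. The share of all genes called lower was 38.1%, 28.5%, 19.99% and 11.8% in those classes, and 29, 5, 5 and 3 of the mitochondrial ribosomal protein genes were lower. Length ran with ZT9 minus ZT21 as well, with medians of all genes of -0.10, 0.02, 0.11 and 0.16 in WT and 0.05, -0.12, -0.19 and -0.22 in KO. The part of length in their difference from PBS was not tested further. The library with the lowest mean level of cytosolic ribosomal proteins, KO replicate 1 at ZT21 (-1.17 on the log2 scale relative to the mean of all libraries), also had the lowest mean of the 77 genes among KO libraries (-0.40).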
